A study of Mus musculus with 15 samples.

Results

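The 10 lymphoid priming genes Flt3, Il2rg, Notch1, Cd27, Cd53, Cd52, Ikzf1, Satb1, Bcl11a and Mef2c were picked by gene symbol from a table of 20696 genes. They were measured by bulk RNA sequencing of hematopoietic stem cells (HSCs) sorted from the bone marrow of mice. The libraries fell into 3 groups of 5. The first held aged mice of 18 months labelled Thbs1 knockout, the second aged control mice of 18 months and the third young control mice of 3 months. Thbs1 encodes thrombospondin-1, a secreted matrix glycoprotein. The labels give no knockout allele and no strain. Nor do they say whether each library came from its own animal, and p-values measure only the spread between these samples, which may be technical.

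Lymphoid priming is the low expression of lymphoid genes in stem and multipotent cells that have not yet committed to a blood lineage. FLT3, the receptor for FLT3 ligand, marks the multipotent progenitors of the mouse that have lost self-renewal and lean towards lymphoid fates, and long-term HSCs of the mouse carry little of it. The transcription factors of the group open lymphoid genes or hold back other programs, and the surface proteins are typical of lymphocytes and their progenitors. In bulk RNA, fewer cells of a type and less RNA per cell cannot be told apart.

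The knockout label was checked first. Thbs1 averaged 10.4 ± 7.84 FPKM in the libraries labelled knockout, 2.90 ± 3.84 in aged controls and 4.24 ± 5.28 in young controls (SD, n = 5 each). It was thus not lower where the label names its knockout, so these libraries are called by their label throughout. Its log2 change did not pass in the libraries labelled knockout against aged controls (1.73, limma adjusted p = 0.302) or young controls (1.19, 0.324). With sex as a covariate Thbs1 was called higher against both (1.27, 0.0377, and 1.19, 0.0374), and it was higher in female than in male libraries (2.30, 0.000147). The library name and the title at the head of a column point to different samples in 10 of 15 columns when read against the sample descriptions. A letter in the library names followed the titles, A for young controls, B for aged controls and C for the knockout label. Groups here follow the titles. With groups set by library names through the sample descriptions, 0 members were called by limma in any comparison of groups. FPKM, fragments per kilobase of transcript scaled to library size, is a level per length. The reads in genes, recovered from the steps of the FPKM values, came to between 16.6e6 and 28.6e6 in each library. The 9 HSC markers used here (Kit, Ly6a, Procr, Slamf1, Mecom, Hlf, Meis1, Fgd5 and Hoxb5) were at 2.45 FPKM or more in every library. Of the markers of mature cells, some were near 0, with at most 0.34 FPKM of Cd3d, 0.21 of Ms4a1, 0.36 of Cd3g and 0.08 of Itgax. Others were not: over all libraries Cd79b, of the B cell receptor, spanned 29.22 to 63.83 FPKM, Nkg7, of cytotoxic cells, 21.87 to 117.11, Cd68, of macrophages, 5.35 to 12.08, and S100a8, of neutrophils, 1.45 to 19.31. Sex was read from the library names, which gave 3 female and 2 male libraries labelled knockout, 2 female and 3 male aged controls, and 3 female and 2 male young controls. The male libraries carry the lower replicate numbers in every group. Only replicate 3 differs in sex between groups (male in aged controls, female in the others), so sex and number can hardly be told apart.

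All 10 genes were in the table, and 9 had a mean of at least 1 FPKM over the 15 libraries and entered the test. Satb1, at a mean of 0.196 FPKM, did not. A gene was called when its Benjamini-Hochberg adjusted p over the 11345 tested genes was under 0.05 in limma on log2(FPKM + 1). Changes on this scale understate those of low genes.

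The members that moved were Flt3, Cd53, Il2rg and Cd27. Flt3 was lower in aged than in young controls, while Cd53 was lower in the libraries labelled knockout than in aged controls and higher in aged than in young controls. Il2rg was lower in the libraries labelled knockout than in aged controls, and Cd27 was lower in them than in young controls. The RefSeq promoters (GRCm38.p6, 250 bases before to 50 after the start site, minus strand in each case) of the 3 members called between the groups of aged mice or with age are shown because Flt3 and Cd53 changed in opposite directions with age and Cd53 and Il2rg were both lower in the libraries labelled knockout. They lie at chr5:147400440-147400739 for Flt3, chr3:106790100-106790399 for Cd53 and chrX:101268206-101268505 for Il2rg. Capitals mark GAGGAA, the core of PU.1-type ETS sites, on either strand.
Flt3: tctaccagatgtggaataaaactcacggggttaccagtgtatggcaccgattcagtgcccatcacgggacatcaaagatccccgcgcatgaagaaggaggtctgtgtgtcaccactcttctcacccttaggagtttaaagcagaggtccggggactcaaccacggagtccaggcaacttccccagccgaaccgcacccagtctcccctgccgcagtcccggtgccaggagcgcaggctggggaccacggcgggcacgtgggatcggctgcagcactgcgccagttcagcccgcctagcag
Cd53: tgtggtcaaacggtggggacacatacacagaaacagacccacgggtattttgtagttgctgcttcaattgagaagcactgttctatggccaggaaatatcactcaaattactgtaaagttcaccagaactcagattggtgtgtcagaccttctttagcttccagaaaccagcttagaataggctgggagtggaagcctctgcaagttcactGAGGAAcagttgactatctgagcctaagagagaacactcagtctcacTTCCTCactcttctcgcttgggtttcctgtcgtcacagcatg
Il2rg: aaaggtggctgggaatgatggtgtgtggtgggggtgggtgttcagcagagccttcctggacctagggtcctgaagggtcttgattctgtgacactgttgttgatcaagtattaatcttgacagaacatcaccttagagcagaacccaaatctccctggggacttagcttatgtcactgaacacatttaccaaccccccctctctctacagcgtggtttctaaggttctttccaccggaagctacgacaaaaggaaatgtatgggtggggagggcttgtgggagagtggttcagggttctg

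The Cd53 promoter held GAGGAA 2 times, at 39 bases before the start on the gene's strand and at 8 bases after it on the other strand. Those of Flt3 and Il2rg held none. At least 1 match on either strand was found in 28.3% of all 32851 RefSeq promoters of this length. The other motifs searched on both strands were TGTGGT for RUNX (16.8% of promoters), CAGCTG for an E-box (16.3%), AGATAA for GATA factors (11.2%) and TGGGAA for RBPJ, the DNA-binding partner of Notch (25.6%). Searched in 16 promoters of 9 members, GAGGAA was also found in promoters of Satb1, Mef2c and Notch1, TGTGGT in Cd53 and Il2rg, TGGGAA in Il2rg, Satb1 and Bcl11a, CAGCTG 2 times in 1 promoter of Satb1 and AGATAA in none. No match overlapped with another. The Flt3 window held none of the 5. Promoters were matched for 9 of the 10 members (all but Cd52). A match is a string of letters and not a measured binding site.

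Flt3 (ENSMUSG00000042817, GRCm38 chromosome 5, 147330741 to 147400489) was low in aged controls and spread widely in the libraries labelled knockout. Its levels in replicates 1 to 5 were 8.15, 10.75, 5.87, 3.72 and 2.33 FPKM in the libraries labelled knockout. They were 2.38, 2.56, 2.07, 2.68 and 2.06 FPKM in aged controls. They were 9.07, 8.57, 9.77, 9.10 and 11.02 FPKM in young controls. No aged control reached any young control. The libraries labelled knockout ran from within the aged control range (replicate 5) to within the young control range (replicate 2).

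The mean of Flt3 was 2.35 ± 0.281 FPKM in aged controls, 4.05-fold below the 9.51 ± 0.948 FPKM of young controls (SD, n = 5 each). On the log2 scale the difference was -1.65 (SE 0.25, limma adjusted p = 0.00043). It was called without any 1 of the 15 libraries, with adjusted p between 3.7e-05 and 0.0020. The difference was -1.70 within females (limma adjusted p = 0.0609) and -1.56 within males (0.000851).

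Against aged controls, the libraries labelled knockout averaged 6.16 ± 3.38 FPKM of Flt3, 2.62-fold higher, but this was not called (log2 change 0.96, SE 0.25, limma adjusted p = 0.0642). Here the call turned on single libraries. It passed without labelled knockout replicate 4 (adjusted p = 0.0411) or replicate 5 (log2 change 1.20, adjusted p = 0.00313), and with sex as a covariate (1.02, adjusted p = 0.0293). The 3 female libraries labelled knockout averaged 3.97 FPKM of Flt3 and the 2 male ones 9.45 FPKM. Within females the log2 change against aged controls was 0.50 (limma adjusted p = 0.931), and within males it was 1.64 (limma adjusted p = 0.00111). The difference between these changes was -1.13 (female minus male, unadjusted p = 0.00604), which did not pass over all genes (limma adjusted p = 0.999). Against young controls the libraries labelled knockout were at a log2 change of -0.69 (SE 0.25, limma adjusted p = 0.145).

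**Figure D1:**
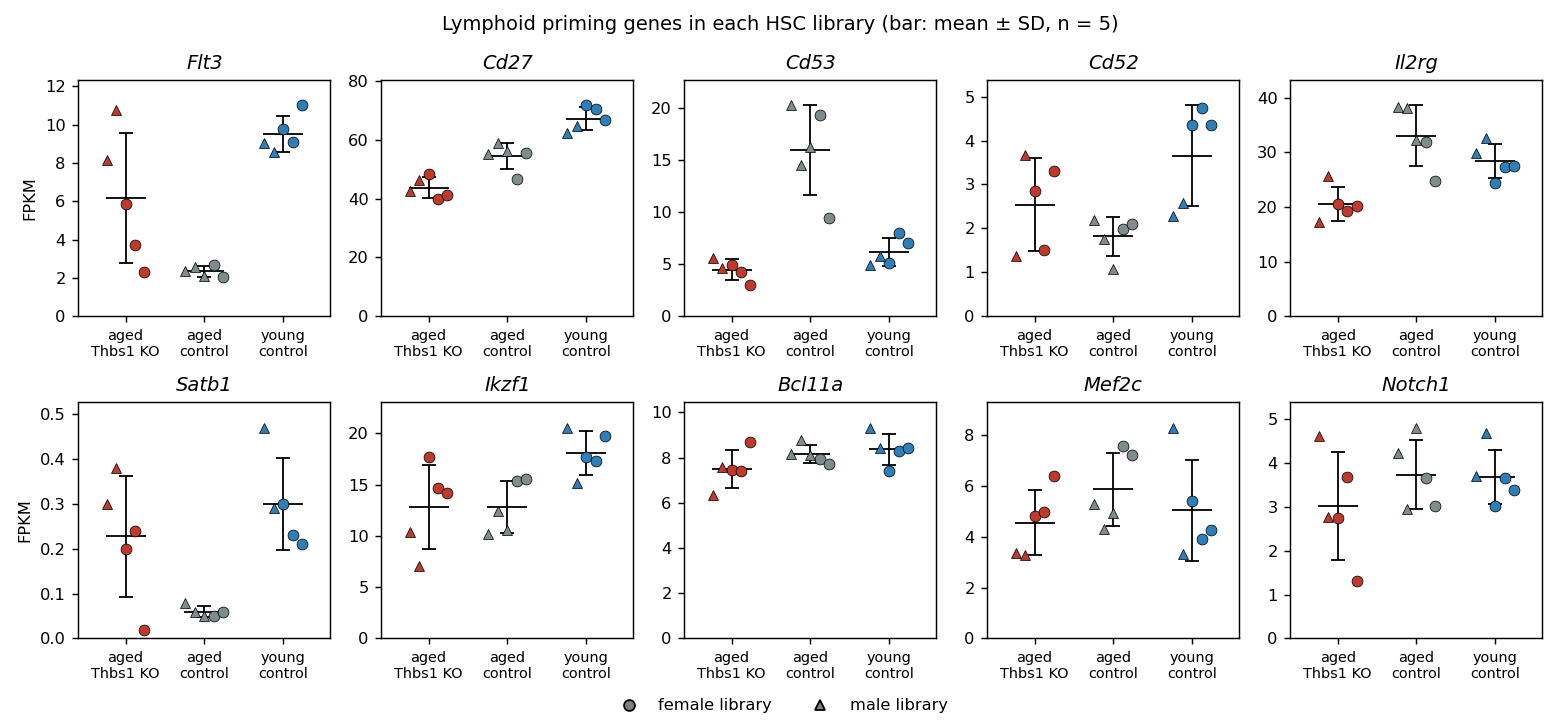
Level (FPKM) of each of the 10 lymphoid priming genes in the 15 libraries, 1 panel per gene, with the libraries labelled aged Thbs1 knockout, the aged controls and the young controls from left to right. Each point is a library, marked by the sex in its library name, and the bar is the group mean with its SD. Flt3 is low in all aged controls (2.06 to 2.68 FPKM) and Cd53 is high in them (9.47 to 20.26 FPKM).

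Il2rg (ENSMUSG00000031304, chromosome X, 101264378 to 101268255) encodes the common gamma chain, the subunit shared by the receptors for IL-2, IL-4, IL-7, IL-9, IL-15 and IL-21. Its levels in replicates 1 to 5 were 17.33, 25.63, 20.54, 19.34 and 20.13 FPKM in the libraries labelled knockout. They were 38.35, 38.12, 32.26, 31.87 and 24.80 FPKM in aged controls. They were 29.90, 32.62, 24.40, 27.39 and 27.60 FPKM in young controls. The libraries labelled knockout were the lowest group, and only their replicate 2 lay above the lowest library of either control group.

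Il2rg fell to 20.6 ± 3.07 FPKM in the libraries labelled knockout, against 33.1 ± 5.56 FPKM in aged controls (SD, n = 5 each), a 1.61-fold lower mean (log2 change -0.65, SE 0.14, limma adjusted p = 0.0190). The call was lost without aged control replicate 1 (limma adjusted p = 0.076) or replicate 2 (0.0722) and with only those groups in the fit (0.103). Within females the change was -0.47 (0.852) and within males -0.75 (0.0571). The change was -0.45 against young controls (limma adjusted p = 0.106, and 0.0469 with sex as a covariate) and 0.20 in aged against young controls (adjusted p = 0.404).

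Notch1 (chromosome 2, 26457903 to 26516663), the receptor whose signal commits progenitors to the T lineage, was not called in any comparison, with 3.02 ± 1.23 FPKM in the libraries labelled knockout, 3.74 ± 0.791 in aged controls and 3.69 ± 0.615 in young controls (SD, n = 5 each). Its lowest library was labelled knockout replicate 5 with 1.31 FPKM, and the other 14 libraries spanned 2.74 to 4.81 FPKM. Its log2 change was -0.28 (limma adjusted p = 0.580) in the libraries labelled knockout against aged controls, -0.27 (0.420) against young controls and 0.01 (0.985) in aged against young controls.

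Cd27 (ENSMUSG00000030336, chromosome 6, 125232622 to 125237010), a receptor of the tumour necrosis factor family that lymphocytes and early progenitors carry, had the highest level per length of the 10 genes in every library. Replicates 1 to 5 held 42.63, 46.19, 48.46, 39.78 and 41.25 FPKM in the libraries labelled knockout. The aged controls held 55.10, 58.91, 56.10, 46.79 and 55.59 FPKM. The young controls held 62.25, 64.58, 71.79, 70.37 and 66.90 FPKM. Every young control lay above every aged library, and aged control replicate 4 alone reached into the range of the libraries labelled knockout.

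The mean of Cd27 was 43.7 ± 3.58 FPKM in the libraries labelled knockout, 1.54-fold below the 67.2 ± 3.96 FPKM of young controls (log2 change -0.61, SE 0.10, limma adjusted p = 0.00455). Without each 1 of the 15 libraries in turn this adjusted p ran from 0.00454 to 0.0186. The change was -0.68 within females (limma adjusted p = 0.199) and -0.51 within males (0.0676), and was called in neither sex alone. The aged controls lay between, at 54.5 ± 4.56 FPKM (SD, n = 5 each), and neither step was called. The log2 change was -0.31 (limma adjusted p = 0.176) in the libraries labelled knockout against aged controls and -0.30 (adjusted p = 0.121) in aged against young controls. The second was called with quantile normalization (-0.41, limma adjusted p = 0.0134) and without labelled knockout replicates 2 and 5 (0.0488).

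Cd53 (ENSMUSG00000040747, chromosome 3, 106759921 to 106790149), a tetraspanin of blood cell membranes, was higher in aged controls than in both other groups. Replicates 1 to 5 held 5.62, 4.60, 4.90, 4.27 and 2.98 FPKM in the libraries labelled knockout. The aged controls held 20.26, 14.47, 16.27, 19.29 and 9.47 FPKM. The young controls held 4.92, 5.73, 5.09, 8.02 and 7.05 FPKM. All 5 aged controls lay above the other 10 libraries, and the young controls overlapped with the libraries labelled knockout.

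Cd53 fell to 4.47 ± 0.973 FPKM in the libraries labelled knockout, against 16.0 ± 4.30 FPKM in aged controls, 3.57-fold lower (log2 change -1.61, SE 0.20, limma adjusted p = 0.000161). The aged controls were 2.59-fold above the 6.16 ± 1.33 FPKM of young controls (SD, n = 5 each), a log2 change of 1.22 (SE 0.20, limma adjusted p = 0.000817). Both calls stood without any 1 of the 15 libraries. The log2 change against aged controls was -1.55 within females (limma adjusted p = 0.236) and -1.55 within males (0.00126). The difference of aged against young controls was 0.94 within females, where it was not called (limma adjusted p = 0.476), and it was called higher within males (0.000887). In the libraries labelled knockout against young controls the change was not called (-0.39, limma adjusted p = 0.260). These comparisons share the aged controls, so the fall and the rise are not independent.

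Klrb1c, the NK1.1 receptor of natural killer cells, was called in the same comparisons as Cd53. The 6 T and NK cell markers in the table summed to 29.4 to 61.68 FPKM in the libraries labelled knockout, 67.75 to 134.91 in aged controls and 54.14 to 105.16 in young controls. Nkg7, a granule protein, and Klrb1c made up most of the sum. Nkg7 averaged 43.8 FPKM in the libraries labelled knockout, 86.3 in aged controls and 70.3 in young controls and was not called. Klrb1c was called lower in the libraries labelled knockout than in aged controls (log2 change -1.38, limma adjusted p = 0.0207). This call was lost without labelled knockout replicate 2 or aged control replicate 1 or 2. It was also lost with only those groups in the fit (limma adjusted p = 0.0878) and in females alone (0.739). Labelled knockout replicate 5, at 15.07 FPKM, lay within the aged control range of 9.71 to 22.64. Klrb1c was called higher in aged than in young controls (2.34, limma adjusted p = 8.69e-05), though not in females alone (0.0505). The part of these markers in the Cd53 result was not tested. The HSC markers summed to 359.84 to 459.02 FPKM in the libraries labelled knockout, 588.48 to 617.59 in aged controls and 435.36 to 471.59 in young controls, and their part was not tested either. Ly6a, the largest part of the sum, averaged 137, 284 and 155 FPKM in these groups. The means of Procr, Slamf1, Fgd5 and Hoxb5 were also higher in aged than in young controls. Those of Kit, Mecom, Hlf and Meis1 were lower. Of 12 tested markers of B cells, dendritic cells and macrophages, neutrophils and erythroid cells, limma and voom called 0 in each comparison of groups, with 1 (Epor, lower in the libraries labelled knockout than in aged controls) at an unadjusted p under 0.05.

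Cd52 (chromosome 4, 134082448 to 134095082), a short glycoprotein anchored in the lymphocyte membrane, was low throughout. Replicates 1 to 5 held 1.37, 3.68, 2.84, 1.51 and 3.31 FPKM in the libraries labelled knockout. The aged controls held 2.19, 1.75, 1.08, 1.99 and 2.09 FPKM. The young controls held 2.27, 2.57, 4.35, 4.75 and 4.35 FPKM. The aged controls lay wholly below the young controls, by a narrow gap, and the libraries labelled knockout overlapped with both.

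Cd52 averaged 2.54 ± 1.05 FPKM in the libraries labelled knockout, 1.82 ± 0.445 in aged controls and 3.66 ± 1.15 in young controls (SD, n = 5 each). The change in aged against young controls was not called (log2 change -0.70, SE 0.22, limma adjusted p = 0.0827). It passed with only those groups in the fit (limma adjusted p = 0.0361) and without labelled knockout replicates 2 and 5 (0.0386). The other changes were 0.29 (limma adjusted p = 0.603) in the libraries labelled knockout against aged controls and -0.41 (0.283) against young controls.

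Ikzf1 (chromosome 11, 11685003 to 11772926) encodes Ikaros, a zinc finger factor that lymphoid development requires. Replicates 1 to 5 held 10.41, 7.10, 17.70, 14.63 and 14.15 FPKM in the libraries labelled knockout. The aged controls held 10.21, 12.46, 10.59, 15.36 and 15.51 FPKM. The young controls held 20.56, 15.15, 17.65, 17.30 and 19.78 FPKM. In both aged groups the female libraries, replicates 3 to 5 and 4 to 5, were the higher ones.

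Ikzf1 averaged 12.8 ± 4.10 FPKM in the libraries labelled knockout, 12.8 ± 2.53 in aged controls and 18.1 ± 2.15 in young controls (SD, n = 5 each). No comparison of groups was called: the log2 change was -0.04 (limma adjusted p = 0.953) in the libraries labelled knockout against aged controls, -0.52 (0.156) against young controls and -0.48 (0.182) in aged against young controls. With only the 2 control groups in the fit the last passed (limma adjusted p = 0.0441). The change of the libraries labelled knockout against young controls was -0.23 within females (limma adjusted p = 0.625) and -0.96 within males (0.0312), where it was called.

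Satb1 (ENSMUSG00000023927, chromosome 17, 51736187 to 51833290), a chromatin organiser of T cells and lymphoid progenitors, was the lowest of the members per length. Its annotated exons span 19027 bases, so a level this low still rests on reads. Replicates 1 to 5 held 0.30, 0.38, 0.20, 0.24 and 0.02 FPKM in the libraries labelled knockout, from 119, 141, 74, 125 and 9 recovered reads. The aged controls held 0.08, 0.06, 0.05, 0.05 and 0.06 FPKM, from 27, 29, 16, 22 and 27 reads. The young controls held 0.47, 0.29, 0.30, 0.23 and 0.21 FPKM, from 166, 136, 125, 130 and 111 reads. All aged controls lay below all young controls. Of the libraries labelled knockout, 4 lay above every aged control and replicate 5 lay below them all.

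The Satb1 mean was 0.228 ± 0.135 FPKM in the libraries labelled knockout, 0.060 ± 0.0122 in aged controls and 0.300 ± 0.102 in young controls (SD, n = 5 each). In exact two-sided permutation tests adjusted over the 3 comparisons, aged controls were lower than young controls (log2 change -0.29, p = 0.00794, adjusted p = 0.0238). That p is the smallest that 5 against 5 can give. The change in the libraries labelled knockout did not pass after adjustment against aged controls (0.21, exact p = 0.0476, adjusted p = 0.0714) or against young controls (-0.09, exact p = 0.389). With all genes in limma, no change of Satb1 was called (adjusted p = 0.0589 in aged against young controls). A step of 0.01 FPKM is worth 3.28 to 5.64 reads of this gene, so the rounding of the table is coarse beside the aged control values.

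Flt3, Satb1 and Cd52 shared an order of the means, with aged controls lowest, young controls highest and the libraries labelled knockout between. Only the change of Flt3 with age among these passed over all genes.

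The remaining factors were called in no comparison of groups. Bcl11a (chromosome 11, 24078056 to 24174123), a zinc finger factor needed for B lymphopoiesis, averaged 7.49 ± 0.833 FPKM in the libraries labelled knockout, 8.15 ± 0.395 in aged controls and 8.38 ± 0.678 in young controls. Its log2 changes were -0.11 against aged controls (limma adjusted p = 0.733), -0.15 against young controls (0.455) and -0.03 in aged against young controls (0.890). Mef2c (chromosome 13, 83504034 to 83667080), a MADS-box factor that favours lymphoid over myeloid fate in mouse multipotent progenitors, averaged 4.56 ± 1.28 FPKM in the libraries labelled knockout, 5.86 ± 1.44 in aged controls and 5.03 ± 1.97 in young controls (SD, n = 5 each). Its log2 changes were -0.31 against aged controls (limma adjusted p = 0.561), -0.10 against young controls (0.804) and 0.22 in aged against young controls (0.570). Young control replicate 1, with 8.29 FPKM, was the highest Mef2c library and the other young controls lay between 3.32 and 5.39 FPKM.

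**Figure D2:**
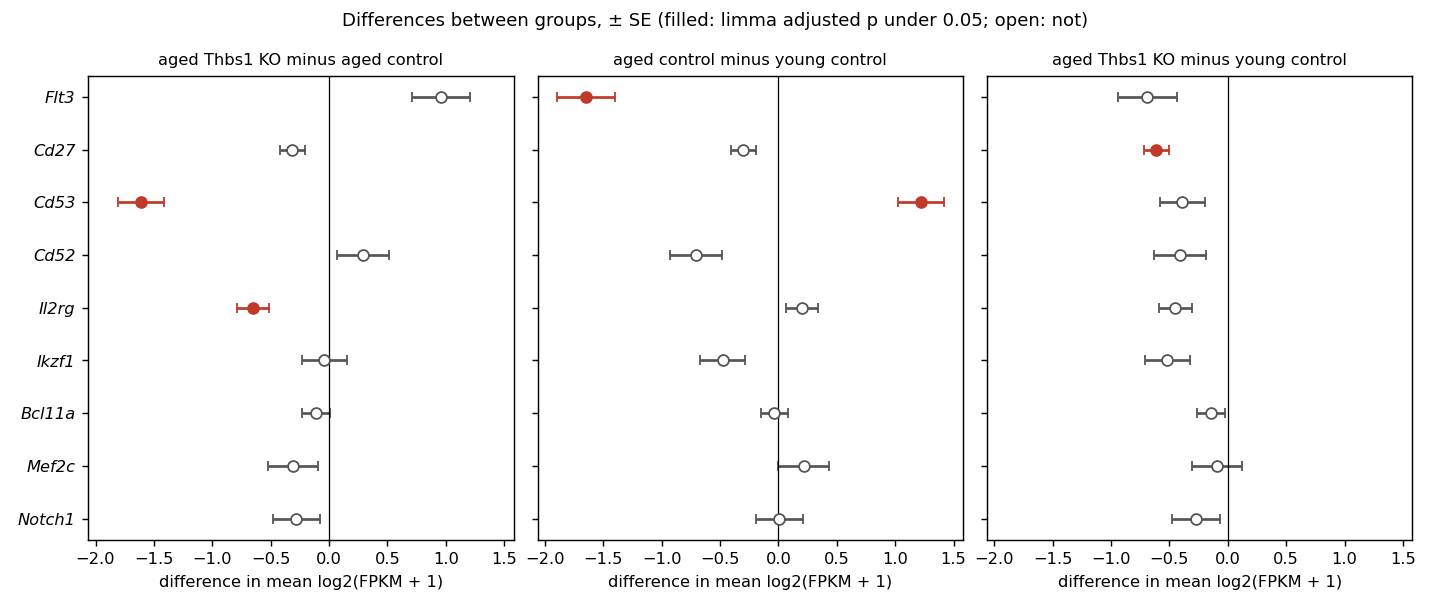
Difference in mean log2(FPKM + 1) of the 9 tested lymphoid priming genes, with the SE as the bar and filled points for genes called by limma. Panels give the libraries labelled knockout minus aged controls, aged minus young controls, and the libraries labelled knockout minus young controls. Cd53 lies at -1.61 in the first panel and at 1.22 in the second, and Flt3 at 0.96 and -1.65.

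The members were chosen with earlier results of these data known, so the shares given beside the counts are no test of the list. Counted over the members, 2 of 9 tested genes (Cd53 and Il2rg) were lower and 0 higher in the libraries labelled knockout than in aged controls. In this comparison 1.55% of all tested genes were called, 0.361% as higher and 1.19% as lower. At an unadjusted p under 0.05, 1 member (Flt3) was higher and 3 were lower, beside 4.64% higher and 8.31% lower of all tested genes, and voom called the same 2. In aged against young controls 1 member was higher (Cd53) and 1 lower (Flt3), where 4.42% of all tested genes were called (3.18% higher, 1.23% lower). Unadjusted, 1 member was higher and 4 were lower, beside 9.98% of all tested genes in each direction. In the libraries labelled knockout against young controls 1 member was lower (Cd27), where 1.63% of all tested genes were called (1.01% higher, 0.617% lower). Unadjusted, 0 members were higher and 4 lower, beside 9.17% and 12% of all tested genes.

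Members whose groups did not overlap were counted as well. In aged against young controls 5 of the 10 members (4 of the 9 tested) did not overlap, Cd53 on the higher side and Flt3, Cd27, Cd52 and Satb1 on the lower, where 7.16% of all tested genes did not. In the libraries labelled knockout 1 member did not overlap with aged controls (Cd53, 2.34% of all tested genes) and 1 not with young controls (Cd27, 4.50%). The median log2 change of the 9 tested members was -0.28 in the libraries labelled knockout against aged controls, where that of all tested genes was -0.03. It was -0.03 in aged against young controls (all genes -0.02). It was -0.41 in the libraries labelled knockout against young controls (all genes -0.06), with all 9 members on the negative side. Their changes ran from -0.69 for Flt3 to -0.10 for Mef2c, and only that of Cd27 was called. In females alone Mef2c was on the positive side (0.21).

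Between sexes, with group as a covariate, Ikzf1 was the member called. It was higher in female than in male libraries (log2 change 0.42, SE 0.13, limma adjusted p = 0.0394), where 12.9% of all tested genes were called (9.67% higher, 3.27% lower). In the libraries labelled knockout it averaged 15.5 FPKM in females and 8.76 in males, and in aged controls 15.4 and 11.1 FPKM. In young controls the sexes were close, at 18.2 FPKM in females and 17.9 in males. The call was lost in 10 of 15 omissions of a library and held without labelled knockout replicate 5 or young control replicate 1, 3, 4 or 5 (limma adjusted p from 0.00515 to 0.105). Without young control replicate 1, Mef2c was called as well (limma adjusted p = 0.0049).

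The genes whose pattern over the 15 libraries was most like that of a called member were found by the root mean square difference of log2(FPKM + 1) after subtracting each gene's mean. For Flt3 they were Ctss (0.277), Kcnk12 (0.323) and Haao (0.33), where the SD of Flt3 itself was 0.779. For Cd53 they were Mycn (0.275), Vldlr (0.341) and B3gnt3 (0.341), with an SD of 0.743. Mycn averaged 53.7 FPKM in the libraries labelled knockout, 149 in aged controls and 84.5 in young controls. For Il2rg, Ctns, Mocs3 and Mif4gd differed by 0.203 to 0.206 (SD 0.327), and for Cd27, Phf11b, Rfc2 and Nfkbie by 0.143 to 0.158 (SD 0.268).

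Other genes of the members' pathways moved in small numbers. The common gamma chain pathway had 11 tested genes. IL-15, a cytokine that signals through the common gamma chain, was the one called in both comparisons with aged controls. Il15 held 12.89, 15.41, 14.02, 17.02 and 15.58 FPKM in the libraries labelled knockout, 8.65, 8.06, 6.19, 13.76 and 9.74 in aged controls and 16.62, 18.98, 17.37, 20.07 and 17.82 in young controls. It was higher in the libraries labelled knockout than in aged controls (log2 change 0.67, limma adjusted p = 0.0362), a call lost by voom (0.0617) and in 12 of 15 omissions of a library, all but those of labelled knockout replicate 1 and aged control replicates 4 and 5. It was lower in aged than in young controls (-0.94, limma adjusted p = 0.00118). Socs1, an inhibitor of cytokine signals, was higher in aged than in young controls (0.87, limma adjusted p = 0.0175). That call was lost without young control replicate 1, 3 or 5 or aged control replicate 1, 2 or 3, with limma adjusted p up to 0.0623. The tested receptor chains, kinases and STAT factors of the list were not called. At an unadjusted p under 0.05, Il15 was higher and 3 genes (Jak3, Socs1 and Stat6) were lower in the libraries labelled knockout than in aged controls. Of all tested genes 4.64% were higher and 8.31% lower at that threshold. Against young controls there were 0 in the libraries labelled knockout.

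Of 14 tested Notch pathway genes, Hes1, a target of Notch, was called, higher in aged than in young controls (log2 change 1.08, limma adjusted p = 0.00754). It averaged 3.78 ± 0.629 FPKM in aged controls and 1.27 ± 0.394 in young controls (SD, n = 5 each). In the libraries labelled knockout limma and voom called 0 Notch pathway genes. At an unadjusted p under 0.05 there were 3 lower genes against aged controls, and 2 higher and 2 lower against young controls. In aged against young controls 4 were higher and 0 lower. Of 9 tested genes around FLT3 and related receptors, Kit among them, limma and voom called 0 in each comparison of groups. At an unadjusted p under 0.05 there were 0 in the libraries labelled knockout against aged controls and 3 lower in them against young controls. In aged against young controls 1 was higher and 2 were lower. Of all tested genes, 4.64% were higher and 8.31% lower at this threshold in the libraries labelled knockout against aged controls. Against young controls they were 9.17% and 12%, and in aged against young controls 9.98% in each direction.

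Of 11 tested lymphoid transcription factors outside the members, Id2, an inhibitor of E proteins, was called, higher in aged than in young controls (log2 change 1.44, limma adjusted p = 0.0166). It held 16.3 ± 5.33 FPKM in aged controls and 5.29 ± 1.74 in young controls (SD, n = 5 each). The call was lost without young control replicate 3 or 5 or aged control replicate 2 or 3 (limma adjusted p up to 0.06). In the libraries labelled knockout limma and voom called 0 of the 11. At an unadjusted p under 0.05, 1 (Id2) was lower against aged controls, beside 8.31% of all tested genes. Against young controls 2 were higher and 4 lower, beside 9.17% and 12% of all tested genes. In aged against young controls 3 were higher and 2 lower, beside 9.98% in each direction.

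Lymphoid progenitor surface genes and enzymes had 5 tested members of 13 in the table. Itgb7, an integrin chain of gut-homing lymphocytes, held 11.51, 11, 7.44, 7.58 and 10.5 FPKM in the libraries labelled knockout, 19.41, 20.53, 24.45, 14.91 and 19.67 in aged controls and 11.99, 13.59, 9.03, 10.75 and 14.29 in young controls. All aged controls lay above the other 10 libraries, as for Cd53. It was lower in the libraries labelled knockout than in aged controls (log2 change -0.98, limma adjusted p = 0.00289) and higher in aged than in young controls (0.69, 0.0190), the second lost without young control replicate 3 or 4 or aged control replicate 2 or 3 (up to 0.0721). Cd37, a tetraspanin of B cells and a paralog of Cd53, was lower in aged than in young controls (-0.94, limma adjusted p = 0.000345) and in the libraries labelled knockout than in young controls (-0.83, adjusted p = 0.00442). Cd34, a sialomucin that marks progenitors and short-term HSCs in the mouse, was lower in the same comparisons (-1.06, limma adjusted p = 0.0012, and -0.88, 0.0154), the second lost without young control replicate 5 (0.0528).

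Among 10 tested paralogs of the members, Cd37 and Cd63 were called. Cd63, a tetraspanin of endosomes, was higher in aged than in young controls (log2 change 0.71, limma adjusted p = 0.0489), a call lost in 12 of 15 omissions of a library, all but those of labelled knockout replicates 4 and 5 and aged control replicate 5. Of the HSC markers, Ly6a was lower in the libraries labelled knockout than in aged controls (-1.12, limma adjusted p = 0.00432), and Procr (1.01, 0.00662), Ly6a (0.88, 0.0130) and Hoxb5 (0.70, 0.0244) were higher in aged than in young controls. The Hoxb5 call was lost in 7 of 15 omissions, those of aged control replicates 1 to 3 and of all young controls but replicate 2. The 3 comparisons share groups, so these changes are not independent of each other.

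**Figure D3:**
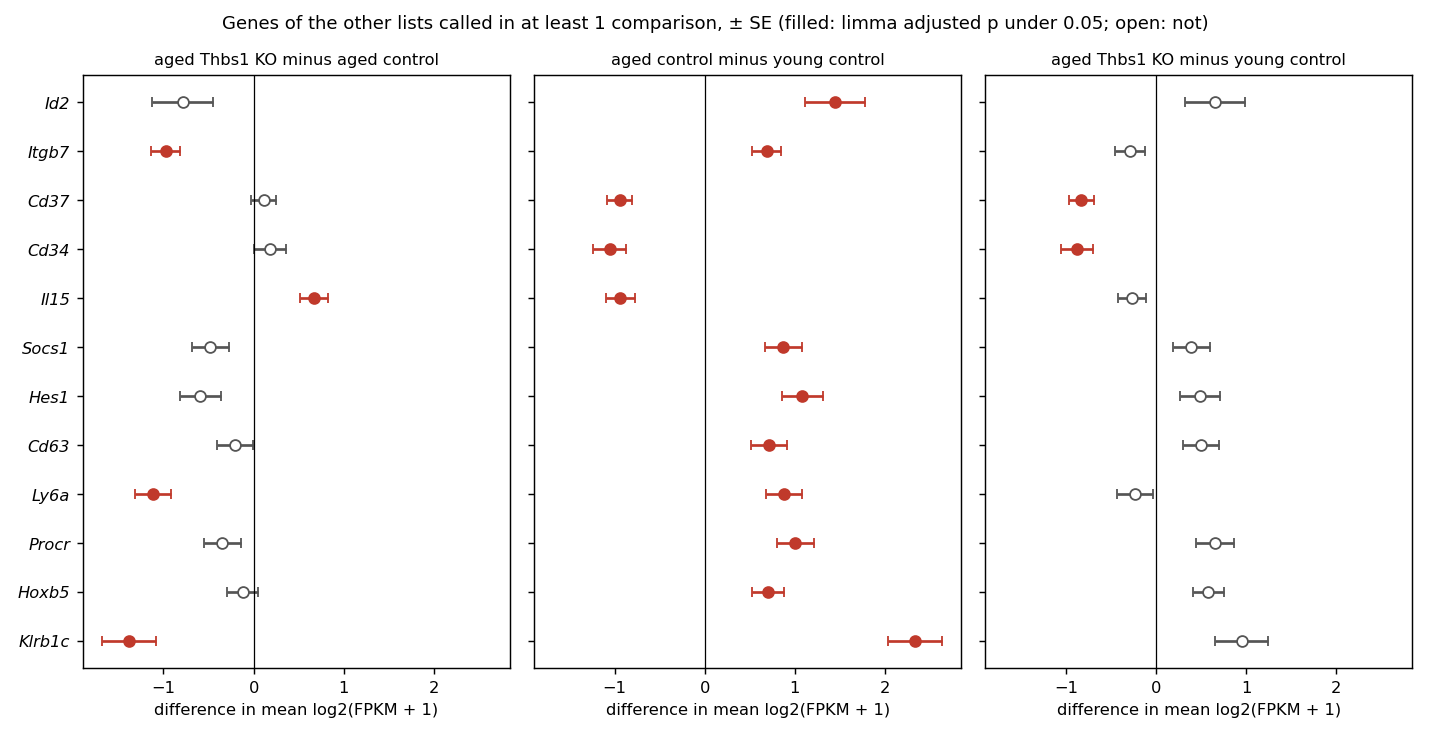
Difference in mean log2(FPKM + 1) of the 12 genes of the related lists that limma called in at least 1 comparison of groups, with the SE as the bar and filled points where called. Panels give the libraries labelled knockout minus aged controls, aged minus young controls, and the libraries labelled knockout minus young controls. Klrb1c and Itgb7 lie below 0 in the first panel (-1.38 and -0.98) and above it in the second (2.34 and 0.69).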

How the data were processed

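Bulk RNA was measured in 15 libraries of sorted mouse HSCs. Per the labels' protocols, cells were sorted into TRIzol-LS and libraries were made from 2 ng of total RNA with SMART-Seq v4. The authors deposited FPKM values with 2 decimals for 20696 genes. Per the submitters' processing notes they used STAR, edgeR and FastQC 0.11.5 on GRCm38 (mm10). The settings, annotation and strandedness of the counting were not given in the sources used here. Overlapping genes may therefore share reads.

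Columns were assigned to samples by title. The members and gene lists were chosen with earlier results of these data known. limma 3.58.1 in R 4.3.3, with an intensity trend, was run on log2(FPKM + 1) of the 11345 genes with a mean of at least 1 FPKM, in a single model of all 15 libraries without covariates (sexes were compared with group as a covariate). Tests were two-sided, p-values were adjusted by Benjamini-Hochberg over all tested genes, and a gene under 0.05 was called. Satb1 was compared by exact permutation. Reads were recovered from the steps of the FPKM values with GENCODE M21 exon lengths: within 0.1 reads, at least 97.5% of values were whole in genes of 300 to 500 nucleotides that were not used to set the scale. Of the recovered reads per gene (under 200, genes of at most 500 nucleotides), 49.8% to 55.8% were odd numbers in each library, so a smaller scale would leave fractions and a doubled one only even numbers. voom on these reads was an alternative. The script was tested on simulated data. Other alternatives changed the pseudocount, filter, normalization, covariates, column assignment and libraries, and the voom fit on genes of at least 10 reads and the test of group by sex were added after seeing the data. All members and at most 4 called genes per list and comparison are named, with the 3 genes of most similar pattern per called member. Some marker genes are not reported here. Sequences are from RefSeq.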

Additional observations from a re-analysis of the deposited data

How the results depend on the processing

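Of 58 results for single genes under 1517 alternative settings, 1317 kept their direction and side of the threshold, 124 lost a call, 14 gained one and 62 turned direction; where nothing else is said, the cause was not tested. The Cd53 and Flt3 calls and the Cd27 call kept their direction and stayed called in all omissions of 1 library.

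Grouping columns by library name went through the sample descriptions and not the letter in the names. It moves 10 of 15 libraries to another group and gave 35 of the 62 turns. It called 0 members in each comparison of groups, and 0, 0 and 15 of all genes in the libraries labelled knockout against aged controls, in aged against young controls and in the libraries labelled knockout against young controls. In the first comparison the log2 changes by library name were -1.37 for Flt3, 0.14 for Cd53, -0.45 for Cd52, 0.17 for Ikzf1, 0.043 for Bcl11a, 0.51 for Mef2c, -0.21 for Satb1 (exact p = 0.0238), 0.0036 for Itgb7, -0.24 for Il15, 0.35 for Ly6a and 1.62 for Klrb1c. In aged against young controls they were 1.06 for Flt3, -0.76 for Cd53, 0.62 for Cd52, -0.48 for Il2rg, 0.021 for Ikzf1, -0.27 for Mef2c, -0.18 for Notch1, 0.12 for Satb1, -0.99 for Id2, -0.59 for Itgb7, 0.27 for Cd37, 0.43 for Cd34, 0.58 for Il15, -0.56 for Socs1, -0.64 for Hes1, -0.33 for Cd63, -0.78 for Ly6a, -0.54 for Procr, -0.39 for Hoxb5 and -1.03 for Klrb1c. They were 0.17 for Cd52, 0.19 for Ikzf1, 0.23 for Mef2c and 0.0015 for Cd34 in the libraries labelled knockout against young controls.

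The other turns were in changes that no comparison called. Ikzf1 in the libraries labelled knockout against aged controls was 0.0020 with quantile normalization and 0.13 without labelled knockout replicates 2 and 5, and -0.17 to 0.14 over omissions of 1 library. In aged against young controls Bcl11a was 0.019 with quantile normalization (-0.072 to 0.0019 over omissions) and Mef2c -0.12 in males alone. Notch1 was -0.049 with sex as a covariate, -0.0075 by voom, -0.0076 by voom on genes of at least 10 reads, -0.0056 in females alone and -0.066 in males alone (-0.069 to 0.080 over omissions). For the libraries labelled knockout against young controls, Flt3 was 0.079 in males alone, and Mef2c was 0.21 in females alone and -0.20 to 0.074 over omissions. Between females and males Cd27 was 0.0091 with quantile normalization, 0.0029 without labelled knockout replicates 2 and 5 and -0.048 to 0.028 over omissions, Cd53 was -0.19 to 0.037 and Bcl11a -0.069 to 0.014.

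Omissions of 1 library gave 1 to 3 called members and 95 to 229 called genes in the libraries labelled knockout against aged controls. With only those groups in the fit 1 member and 77 genes were called. Each sex alone leaves fewer libraries, and 0 members and 10 genes were called in females alone. In males alone 2 members (Flt3 and Cd53) and 241 genes were called. In aged against young controls omissions gave 2 members throughout and 311 to 943 genes. With only those groups 4 members (Flt3, Cd53, Cd52 and Ikzf1) and 1011 genes were called, without labelled knockout replicates 2 and 5 there were 4 (Flt3, Cd53, Cd52 and Cd27) and 1030, in females alone 0 and 27, and in males alone 1093 genes. For the libraries labelled knockout against young controls, omissions gave 1 member and 98 to 676 genes. With sex as a covariate 2 members (Cd27 and Il2rg) and 429 genes were called, in females alone 0 and 11, and in males alone 875 genes. Between sexes omissions gave 0 to 2 members, and 0 were called without the filter, with quantile normalization or without the group covariate, against 2 (Ikzf1 and Cd52) without labelled knockout replicates 2 and 5.

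The replicate numbers were not taken as pairs in the main fit. Deviations of same-numbered libraries correlated at -0.46 to 0.53, and in 3 of 15 cases a library correlated best with its own number in the other group. Sex runs with the number, so these correlations cannot tell pairing from sex. With a replicate block, 2, 2 and 1 members and 152, 499 and 158 genes were called in the 3 comparisons of groups. Of the members, Satb1 and Cd52 had the fewest reads in their lowest library, which limits what can be seen of them.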

Other observations

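Dntt, which encodes the terminal transferase of lymphoid progenitors, was below the minimum of 1 FPKM and is described here after its values were seen. In replicates 1 to 5 it held 0.31, 2.24, 0.12, 0.29 and 0 FPKM in the libraries labelled knockout, from 15, 100, 5, 18 and 0 recovered reads. The aged controls held 0.03, 0, 0, 0.04 and 0.08 FPKM, from at most 4 reads. The young controls held 0.38, 0.8, 0.47, 0.11 and 0.07 FPKM, from 16, 45, 24, 7 and 4 reads. Labelled knockout replicate 2, the highest library for Dntt, was also the highest of its group for Flt3 and Satb1, and replicate 5, at 0 for Dntt, was the lowest of its group for both. The other members were mixed. Replicate 2 was the highest of its group for Cd52 and Il2rg but the lowest for Ikzf1 and Mef2c. Replicate 5 was the lowest for Cd53 and Notch1 but the highest for Bcl11a and Mef2c.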
